A study of Homo sapiens with 18 samples.

Results

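The genes described here are 6 genes of the mesenchymal state of carcinoma cells: the receptor gene AXL, the filament gene VIM, the transcription factor genes ZEB1, ZEB2 and TWIST1, and the matrix enzyme gene LOX. They were chosen by their symbols in the array's annotation, with 1 array feature per gene, the feature with the highest mean over all arrays. Of the 14884 distinct symbols on the array these are 6, carried by 8 of its 53617 features, since VIM has 3 features and each of the others has 1. A feature here is a transcript cluster, the set of probes that the array reads as 1 transcript.

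RNA was measured on 18 arrays, 3 in each of 6 groups. Cells labelled MDA-MB-231 or MDA-MB-468, both triple-negative breast cancer lines, were given an antisense oligonucleotide (ASO) that targets AL078604.2, a long non-coding RNA, or a control ASO. Cells labelled SKBR3, a HER2-positive breast cancer line, were given an ASO that targets LINC01269, another long non-coding RNA, or a control ASO. The ASOs were GapmeRs, which recruit RNase H to cleave the RNA they pair with. All groups received 15 nM for 48 h with the same transfection reagent, so the controls share the transfection, and a single ASO was named per target. The labels do not say whether the 3 arrays of a group came from separate cultures, so the p-values measure the spread between these arrays, which may be technical. The level of either targeted RNA was not analysed here.

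In an epithelial-mesenchymal transition, carcinoma cells give up cell-cell junctions and take on the shape, motility and matrix contacts of mesenchymal cells. ZEB1 and ZEB2 are zinc-finger repressors that bind E-boxes in the promoters of epithelial genes, and TWIST1 is a basic helix-loop-helix factor that also binds E-boxes. The microRNAs of the miR-200 family and miR-205 target the ZEB transcripts, and ZEB factors repress the miR-200 genes in turn. In breast cancer cell lines, AXL and VIM are known as markers of the mesenchymal-like basal lines, of which MDA-MB-231 is a usual example, and LOX crosslinks the collagen around tumour cells.

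The microRNAs are shown because they are known to link the ZEB genes to the epithelial state, and the array also reads their genes. The mature sequences are from RefSeq, with capitals marking the seed, bases 2 to 8, which pairs with target transcripts. The first 3 share the seed AAUACUG, the next pair shares AACACUG, and miR-205 has a different one.
hsa-miR-200b-3p: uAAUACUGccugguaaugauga
hsa-miR-200c-3p: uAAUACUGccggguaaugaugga
hsa-miR-429: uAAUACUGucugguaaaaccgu
hsa-miR-200a-3p: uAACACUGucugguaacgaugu
hsa-miR-141-3p: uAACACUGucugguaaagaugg
hsa-miR-205-5p: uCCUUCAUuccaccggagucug

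The promoters of VIM and LOX are shown because the features of these genes varied together over the 18 arrays, and that of AXL because this gene had the widest gaps between lines. Each is the 250 bases before a transcription start in RefSeq's GRCh38.p14 annotation, with capitals marking E-boxes, the letters CANNTG on either strand.
AXL promoter, chr19:41218973-41219222, + strand: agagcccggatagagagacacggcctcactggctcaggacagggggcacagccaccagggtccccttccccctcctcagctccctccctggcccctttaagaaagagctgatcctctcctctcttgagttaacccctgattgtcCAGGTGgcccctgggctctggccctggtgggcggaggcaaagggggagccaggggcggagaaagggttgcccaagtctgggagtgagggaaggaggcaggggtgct
VIM promoter, chr10:17227991-17228240, + strand: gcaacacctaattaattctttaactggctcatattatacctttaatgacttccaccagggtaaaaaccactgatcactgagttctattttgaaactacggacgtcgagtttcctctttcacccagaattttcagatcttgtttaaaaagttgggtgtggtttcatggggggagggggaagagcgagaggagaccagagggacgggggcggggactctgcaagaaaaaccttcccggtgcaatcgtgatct
LOX promoter, chr5:122078260-122078509, - strand: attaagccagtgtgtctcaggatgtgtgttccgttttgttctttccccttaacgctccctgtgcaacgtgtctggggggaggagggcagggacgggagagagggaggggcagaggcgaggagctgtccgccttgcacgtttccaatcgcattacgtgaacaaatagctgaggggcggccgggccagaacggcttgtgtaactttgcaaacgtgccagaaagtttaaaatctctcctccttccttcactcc
The AXL window held 1 E-box, which is also the box CACCTG, known as a ZEB binding site, read on the opposite strand (CAGGTG), and those of VIM and LOX held 0. Over 35116 promoter windows of the same 250 bases, 61.8% held CANNTG and 17.5% held CACCTG on either strand, and every CACCTG is also a CANNTG. The letters TGANTCA, the AP-1 box, were in 6.57% of all windows and in 0 of these 3. The further AXL window in the table held 2 E-boxes and 0 CACCTG, and each of the 2 further LOX windows, which overlap each other, held 1 CACCTG. Of the 7 ZEB1 windows 2 held CACCTG, the ZEB2 window held 1 E-box and 0 CACCTG, and TWIST1 was not matched.

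The deposited values are on a log2 scale and run from 0.41 to 13.84. Array medians were 5.41 to 5.43 for the label MDA-MB-231, 5.21 to 5.24 for MDA-MB-468 and 4.56 to 4.63 for SKBR3, so each line appears to have been scaled on its own. Lines were therefore compared only by percentile, a feature's rank among all features of its array, or after quantile normalization over all arrays, and without a test, because line and scaling cannot be told apart. Replicate arrays correlated at 0.985 to 0.992 over all features.

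The line labels were checked against marker genes in the control arrays, and the markers went partly against them. MDA-MB-231 is known to be low in the epithelial adhesion gene EPCAM and the epithelial splicing factor ESRP1, yet EPCAM stood at percentiles of 99.2 in the MDA-MB-231 arrays, 99.3 in the MDA-MB-468 arrays and 98.9 in the SKBR3 arrays, and, in the same order, ESRP1 at 98.1, 98 and 98.1. EGFR, whose gene is amplified in the MDA-MB-468 line as commonly described, stood at 98.2, 98.7 and 99, and GRB7, known to be amplified in SKBR3, at 81.3, 78.8 and 79.1. With the labels, the basal keratin KRT5 stood at 73.4, 85.8 and 69.6, highest in MDA-MB-468. The luminal keratin KRT18 stood at 98.5, 97 and 98.7, so it hardly separated MDA-MB-231 from SKBR3. The epithelial junction gene CLDN7 stood at 96.9, 97.3 and 96.3. Of the listed MDA-MB-231 markers, CD44 stood at 98.3, 98 and 97.2, AXL at 83.2, 60.1 and 80.7, and VIM at 76.6, 82.1 and 76.1. AXL thus did not separate MDA-MB-231 from SKBR3, whose arrays overlapped, and VIM was highest in MDA-MB-468. ERBB2 and CDH1 had no named feature. Of 6 fibroblast markers 2 had a named feature, and DCN stood at 4.5, 6.2 and 6.7 and LUM at 15.2, 15 and 32.6. The groups are therefore called by their labels throughout, and no level below is taken as a property of the named line.

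AXL is the receptor tyrosine kinase for the ligand GAS6. In the control arrays its log2 values after quantile normalization were 7.59, 7.65 and 7.31 for MDA-MB-231, 5.67, 5.52 and 5.67 for MDA-MB-468 and 7.20, 7.03 and 7.48 for SKBR3. The MDA-MB-468 arrays lay apart below all others, and the other lines overlapped. In RNA from a whole culture, fewer cells that express a gene and less RNA per cell cannot be told apart. The mean was 7.52 ± 0.18 in MDA-MB-231 and 5.62 ± 0.091 in MDA-MB-468 (SD, n = 3 each), a difference of 1.90, or 3.73-fold. Between MDA-MB-468 and SKBR3, whose mean was 7.24 ± 0.23, the difference was -1.62, or 3.06-fold. The percentiles were 83.2, 60.1 and 80.7 in the order MDA-MB-231, then MDA-MB-468, then SKBR3. The anti-lncRNA arrays gave differences of 1.84 between MDA-MB-231 and MDA-MB-468 and -1.57 between MDA-MB-468 and SKBR3, so AXL was the member with the widest gap between lines under either ASO.

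VIM encodes vimentin, the intermediate filament of mesenchymal cells. Its control values were 6.89, 6.87 and 6.65 for MDA-MB-231, 6.91, 7.26 and 8.09 for MDA-MB-468 and 6.79, 6.85 and 6.64 for SKBR3 (log2, quantile-normalized). The MDA-MB-468 arrays were higher than all others and the most spread, with replicate 3 well above the other 2. The means differed by -0.62 between MDA-MB-231 and MDA-MB-468, by 0.04 between MDA-MB-231 and SKBR3 and by 0.66 between MDA-MB-468 and SKBR3. Without control replicate 3 of MDA-MB-468 the difference was -0.28 between MDA-MB-231 and MDA-MB-468 and 0.32 between MDA-MB-468 and SKBR3, and without its control replicate 1 these were -0.87 and 0.91. The order goes against the known abundance of VIM in MDA-MB-231. It also depended on the feature: the other VIM features were lower in MDA-MB-231 than in SKBR3 by -0.78 and -1.22 with no overlap of arrays, and between MDA-MB-468 and SKBR3 they differed by -0.19 and -0.45 with overlap. All 3 features named VIM had lower values in MDA-MB-231 than in MDA-MB-468. RefSeq also lists an antisense RNA gene, VIM-AS1, that overlaps the start of VIM, and which strand each feature reads is not given in the sources used here.

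LOX encodes lysyl oxidase, the secreted enzyme that starts the crosslinking of collagen and elastin. Its control values were 6.33, 6.25 and 6.18 in MDA-MB-231, 6.65, 6.83 and 7.20 in MDA-MB-468 and 6.26, 6.05 and 6.06 in SKBR3 (log2, quantile-normalized). As for VIM, the MDA-MB-468 arrays lay above all the others. The differences were -0.64 between MDA-MB-231 and MDA-MB-468, 0.13 between MDA-MB-231 and SKBR3 with overlap, and 0.78 between MDA-MB-468 and SKBR3.

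The transcription factor genes stood below the middle of each control array's values. ZEB1 stood at mean percentiles of 45.8 in MDA-MB-231, 33.3 in MDA-MB-468 and 43.7 in SKBR3, ZEB2 at 39, 38.6 and 40.1, and TWIST1 at 15.7, 22 and 26.9. Between lines, ZEB1 was higher in MDA-MB-231 than in MDA-MB-468 by 0.67 and lower in MDA-MB-468 than in SKBR3 by -0.55, with no overlap of arrays in either pair. ZEB2 differed by 0.02, -0.06 and -0.08 in the pairs MDA-MB-231 minus MDA-MB-468, MDA-MB-231 minus SKBR3 and MDA-MB-468 minus SKBR3, and its arrays overlapped in each pair. TWIST1 was lowest in MDA-MB-231, by -0.43 against MDA-MB-468 and by -0.75 against SKBR3, and the arrays of MDA-MB-468 and SKBR3 overlapped with a difference of -0.32.

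Counted over the 6 genes, 5 did not overlap between the control arrays of MDA-MB-231 and MDA-MB-468, where 39.4% of all features did not, 1 between MDA-MB-231 and SKBR3, where 42.7% did not, and 4 between MDA-MB-468 and SKBR3, where 44% did not. A gap of at least 2-fold was found for 1 gene in the first pair, AXL, against 1.26% of all features, for 0 genes in the second pair, against 2.25%, and for 1 gene, again AXL, in the third pair, against 2.62%. On the deposited values as they stand, 5 such gaps would be counted over the 3 pairs and not 2, and ZEB1 would be 0.15 higher, not lower, in MDA-MB-468 than in SKBR3.

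**Figure D1:**
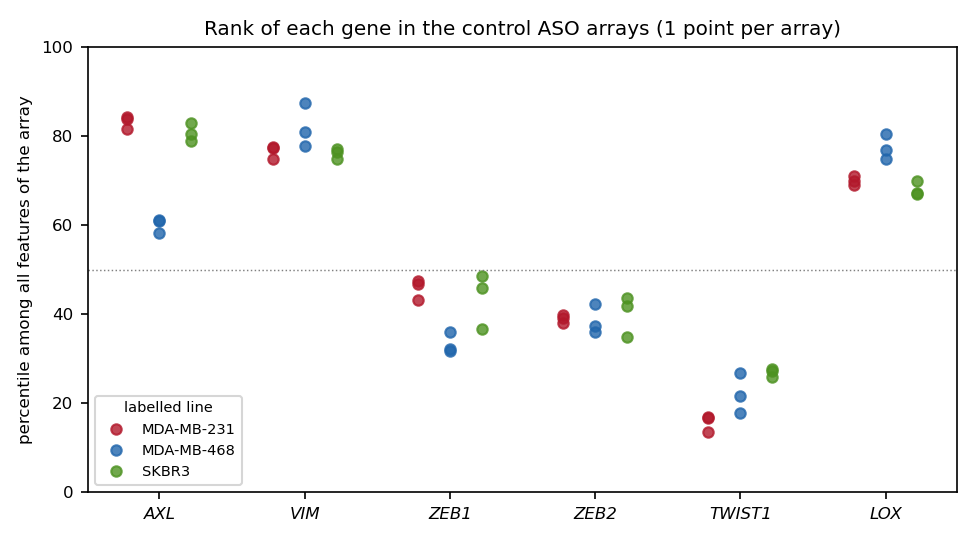
Percentile of each gene among all features of an array (vertical axis) in the 3 control ASO arrays of each labelled line, 1 point per array, with the dotted line at the middle of the array. AXL was at 58.3 to 61.1 in the MDA-MB-468 arrays and at 78.9 to 84.3 in the others, and ZEB1, ZEB2 and TWIST1 lay below the middle in every control array.

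Within a line, each gene was tested by limma between the anti-lncRNA arrays and the control arrays, in a fit over all features with p-values adjusted by Benjamini-Hochberg. AXL, VIM and LOX passed the filter on low values in all 6 groups. ZEB2 passed only through the SKBR3 arrays given anti-LINC01269 ASO, where its mean of 4.59 just exceeded the group's median of 4.58, so its SKBR3 test is not independent of the filter. ZEB1 and TWIST1 passed in 0 groups and are given as values with no test. None of the 4 genes tested passed the threshold of 0.05 in any comparison, so no rise or fall is called for any member.

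In the arrays labelled SKBR3, ZEB2, VIM and LOX had higher values under the anti-LINC01269 ASO in every array, and TWIST1 lower ones, but none passed. ZEB2 was at 4.58, 4.55 and 4.64 under the anti-LINC01269 ASO and at 4.15, 3.73 and 4.26 under the control ASO (deposited log2). The groups did not overlap, and the control arrays were the more spread. The difference was 0.54 ± 0.15 (SE, n = 3 each), a 1.46-fold change, with a limma p of 0.00183 before adjustment and an adjusted p of 0.344. With every feature tested and no filter, the adjusted p of ZEB2 was 0.312.

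LOX was at 6.14, 6.15 and 5.997 under the anti-LINC01269 ASO and at 5.81, 5.60 and 5.63 under the control ASO in SKBR3. All 3 treated arrays were above all 3 controls, by 0.41 ± 0.15 on the log2 scale in the mean (SE, limma adjusted p = 0.437). VIM was at 6.96, 6.81 and 6.55 under the anti-LINC01269 ASO and at 6.36, 6.45 and 6.21 under the control ASO, again without overlap, and the difference was 0.44 ± 0.22 (SE, limma adjusted p = 0.584). The other features named VIM, which may read the antisense strand, gave 0.23, without overlap, and 0.26, with overlap.

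AXL was at 7.09, 6.89 and 6.73 under the anti-LINC01269 ASO and at 6.75, 6.62 and 7.01 under the control ASO, and these overlapped (0.11 ± 0.12, limma adjusted p = 0.839). TWIST1, low on each array, was at 3.13, 2.91 and 2.91 under the anti-LINC01269 ASO and at 3.29, 3.29 and 3.21 under the control ASO, a difference of -0.28 with no overlap. ZEB1 was at 3.85, 4.33 and 3.99 under the anti-LINC01269 ASO and at 4.50, 3.83 and 4.38 under the control ASO, with overlap and a difference of -0.18.

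Among all 29855 features tested in SKBR3, 0% passed after adjustment and 9.16% had an unadjusted p under 0.05. Of the 4 members tested 2 had such a p, ZEB2 and LOX. The arrays of 3 of the 4 lay wholly above the controls, where 7.28% of tested features did; 1 of the 3 is ZEB2, which the filter admitted through its treated group. TWIST1 lay wholly below, as 4.82% of all features did. The median difference over the 6 genes, the untested ZEB1 and TWIST1 included, was 0.26. Over all tested features, which leave out such low ones, it was 0.01, and 54% were above 0. Of 3 endothelial markers listed, PECAM1 and VWF have named features. In control arrays PECAM1 stood at percentiles of 32.4 in SKBR3, 43.3 in MDA-MB-231 and 40 in MDA-MB-468, and VWF at 42.9, 51.9 and 46. From these low levels, their summed level in SKBR3 on the quantile-normalized linear scale was 51.2 to 57.2 under the anti-LINC01269 ASO and 42.2 to 45.9 under the control ASO. Their part in these values was not tested.

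**Figure D2:**
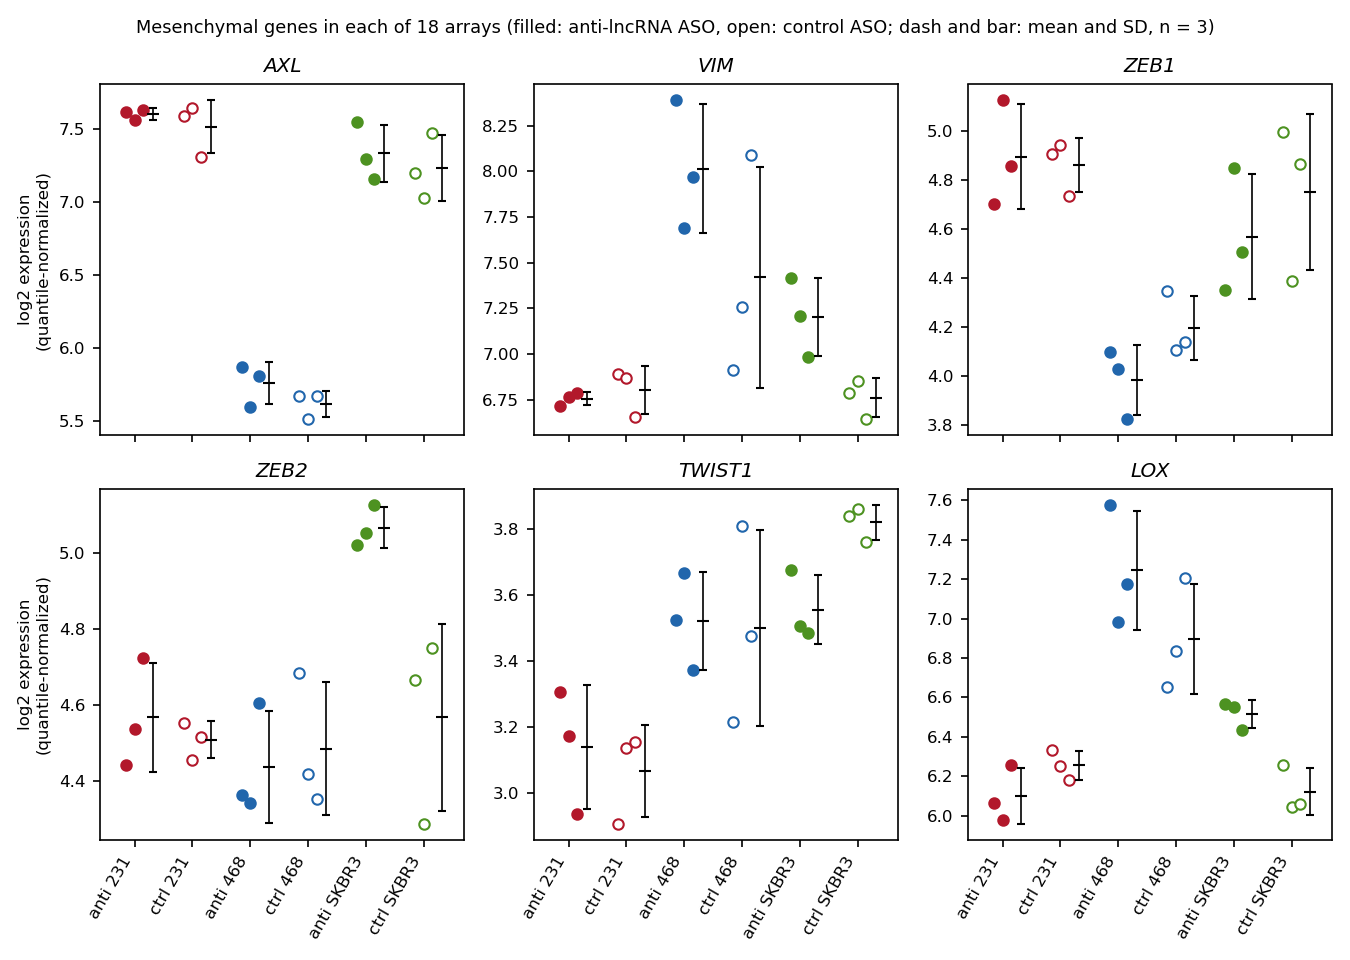
Quantile-normalized log2 expression (vertical axes, a separate scale for each gene) of the 6 genes in each of the 18 arrays, with filled points for the anti-lncRNA ASO and open points for the control ASO, and the mean with its SD beside each group of 3. ZEB2, VIM and LOX under the anti-LINC01269 ASO in SKBR3 lie above their controls, and AXL averages 5.76 and 5.62 in the treated and control MDA-MB-468 groups, below every array of the other lines.

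In the arrays labelled MDA-MB-468, VIM and LOX had the largest differences of the 6 genes under the anti-AL078604.2 ASO, but treated and control arrays overlapped and neither passed. VIM was at 8.52, 7.81 and 8.13 under the anti-AL078604.2 ASO and at 7.04, 7.38 and 8.23 under the control ASO. The third control array was as high as the treated ones, and the first was the lowest. The difference was 0.60 ± 0.22 (SE, n = 3 each), with a 95% interval of 0.13 to 1.07, a p of 0.016 before adjustment and a limma adjusted p of 0.350. It was 0.94 without control replicate 3 (adjusted p = 0.221) and 0.35 without control replicate 1. The other features named VIM, which may read the antisense strand, gave 0.44 and 0.74, also with overlap.

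LOX in MDA-MB-468 was at 7.70, 7.10 and 7.32 under the anti-AL078604.2 ASO and at 6.77, 6.96 and 7.34 under the control ASO. The treated arrays ran higher, but the third control array lay above 2 of them, and the difference was 0.35 ± 0.15 (SE, limma adjusted p = 0.410). It was 0.19 without treated replicate 1, 0.23 without control replicate 1 and 0.51 without control replicate 3. AXL was at 6.02, 5.73 and 5.93 under the anti-AL078604.2 ASO and at 5.80, 5.65 and 5.80 under the control ASO (0.14 ± 0.12, limma adjusted p = 0.746).

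The factor genes stood in the lower part of each MDA-MB-468 array. ZEB1 was at 4.28, 4.23 and 4.02 under the anti-AL078604.2 ASO and at 4.53, 4.29 and 4.33 under the control ASO, with no overlap and a difference of -0.21. ZEB2 was at 4.54, 4.54 and 4.77 under the anti-AL078604.2 ASO and at 4.84, 4.60 and 4.54 under the control ASO (-0.04 ± 0.15, limma adjusted p = 0.957). TWIST1 differed by 0.02, with overlap.

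Of all features tested in MDA-MB-468, 0.0067% passed after adjustment and 10.5% had an unadjusted p under 0.05, as VIM and LOX did among the 4 members tested. No tested member lay wholly above its controls, where 8.41% of tested features did, or wholly below, where 8.5% did (16.9% in all), and ZEB1 lay wholly below, as 7.09% of all features did. The median over the 6 genes, the untested ZEB1 and TWIST1 included, was 0.08, against -0.0035 over all tested features, of which 49.1% were above 0. The 3 genes used as MDA-MB-231 markers were VIM, AXL and the hyaluronan receptor gene CD44. Their summed level on the quantile-normalized linear scale was 1573 to 1817 under the anti-AL078604.2 ASO and 1921 to 1940 under the control ASO. CD44 made up most of the sum, at 10.73 in the control arrays beside 7.42 for VIM and 5.62 for AXL (quantile-normalized log2). CD44 differed by -0.33 under the ASO, while VIM and AXL differed by 0.60 and 0.14, so the lower sum reflects CD44.

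In the arrays labelled MDA-MB-231, every gene overlapped between treated and control arrays. AXL was at 7.95, 7.85 and 7.94 under the anti-AL078604.2 ASO and at 7.90, 7.96 and 7.61 under the control ASO (0.09 ± 0.12, SE, limma adjusted p = 0.907). VIM was at 7.03, 7.06 and 7.09 under the anti-AL078604.2 ASO and at 7.18, 7.17 and 6.95 under the control ASO (-0.04 ± 0.22, limma adjusted p = 0.984). Its 95% interval ran from -0.51 to 0.44. LOX was at 6.38, 6.31 and 6.56 under the anti-AL078604.2 ASO and at 6.63, 6.55 and 6.49 under the control ASO (-0.14 ± 0.15, limma adjusted p = 0.867).

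ZEB2 in MDA-MB-231 was at 4.78, 4.90 and 5.07 under the anti-AL078604.2 ASO and at 4.90, 4.80 and 4.87 under the control ASO (0.06 ± 0.15, limma adjusted p = 0.958). ZEB1 was at 5.04, 5.48 and 5.20 under the anti-AL078604.2 ASO and at 5.25, 5.28 and 5.09 under the control ASO, a difference of 0.03, and TWIST1 differed by 0.08. These values show no gene of the 6 apart from its controls. Of all features tested in MDA-MB-231, 0.171% passed after adjustment, 9.35% had an unadjusted p under 0.05, as 0 of the 4 members did, and 17.2% did not overlap (9.28% higher and 7.87% lower under the ASO). The median over the 6 genes, the untested ZEB1 and TWIST1 included, was 0.05, against 0.01 over all tested features. The summed level of the MDA-MB-231 markers on the same scale was 1778 to 1924 under the anti-AL078604.2 ASO and 2192 to 2302 under the control ASO. CD44 again made up most of it, at 10.94 in the control arrays beside 6.80 for VIM and 7.52 for AXL, and differed by -0.32. VIM and AXL are themselves in the sum, so in both lines it is not a measure apart from the 6 genes. How CD44 relates to the values of the 6 genes was not tested.

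**Figure D3:**
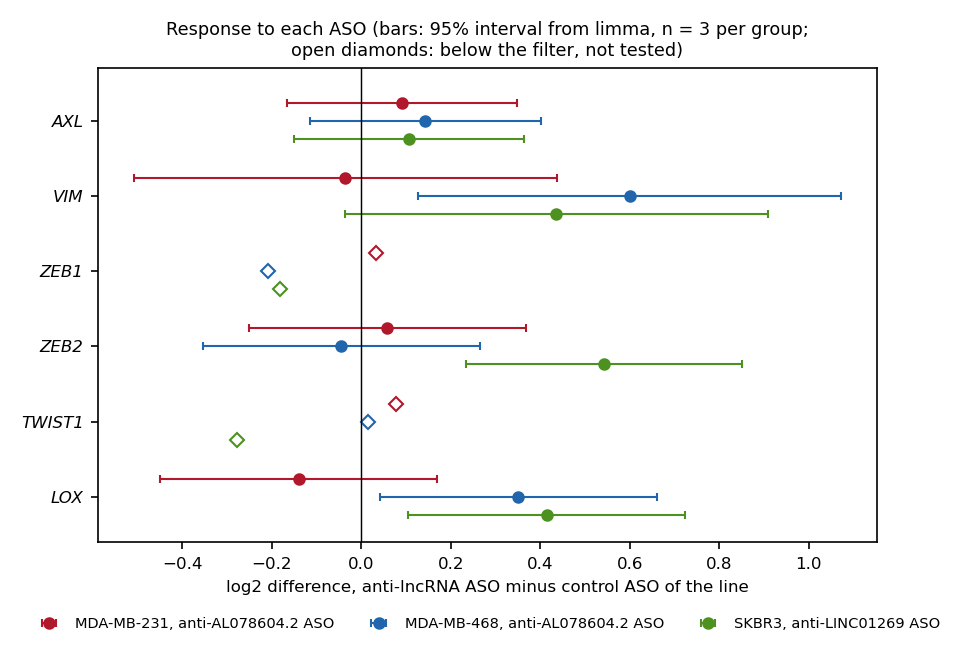
Difference in deposited log2 expression between the anti-lncRNA ASO and the control ASO of the same line (horizontal axis) for each gene and line, with limma's 95% interval; open diamonds are genes below the filter, which were not tested. VIM in MDA-MB-468 (0.13 to 1.07), LOX in MDA-MB-468 and SKBR3 and ZEB2 in SKBR3 have intervals above 0 that are not adjusted for the number of features, and none passed after adjustment.

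Both triple-negative lines were given the same ASO, so the difference between their responses could be tested. It was -0.64 ± 0.32 (SE) for VIM, -0.49 ± 0.21 for LOX, -0.05 for AXL and 0.10 for ZEB2, each with a limma adjusted p of 0.998. Over all features 0% passed and 4.16% had an unadjusted p under 0.05, as LOX alone of the 4 members did. For VIM the difference was -0.97 without control replicate 3 of MDA-MB-468 and -0.38 without its control replicate 1. For LOX it was -0.65 without control replicate 3 of MDA-MB-468 and -0.33 without its treated replicate 1. The responses of VIM and LOX were thus not shown to differ between the lines.

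VIM and LOX followed each other from array to array. After each line's own mean was subtracted, their correlation over 18 arrays was 0.906 (Pearson) and 0.897 (Spearman), and the Pearson value was 0.83 without the 2 arrays farthest out in VIM. It was 0.557 within the 6 MDA-MB-231 arrays, 0.971 within MDA-MB-468 and 0.876 within SKBR3, and 0.874 after each group's mean was subtracted instead. The arrays share their lines, ASOs and normalization, so this is a description of these 18 points. In MDA-MB-468 the same arrays were high in both genes: treated replicate 1 stood highest, at 8.52 for VIM and 7.70 for LOX, and control replicate 1 lowest, at 7.04 and 6.77. The fibronectin gene FN1 had a similar order there, at 9.60, 8.29 and 9.21 under the anti-AL078604.2 ASO and at 8.04, 8.17 and 9.01 under the control ASO.

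**Figure D4:**
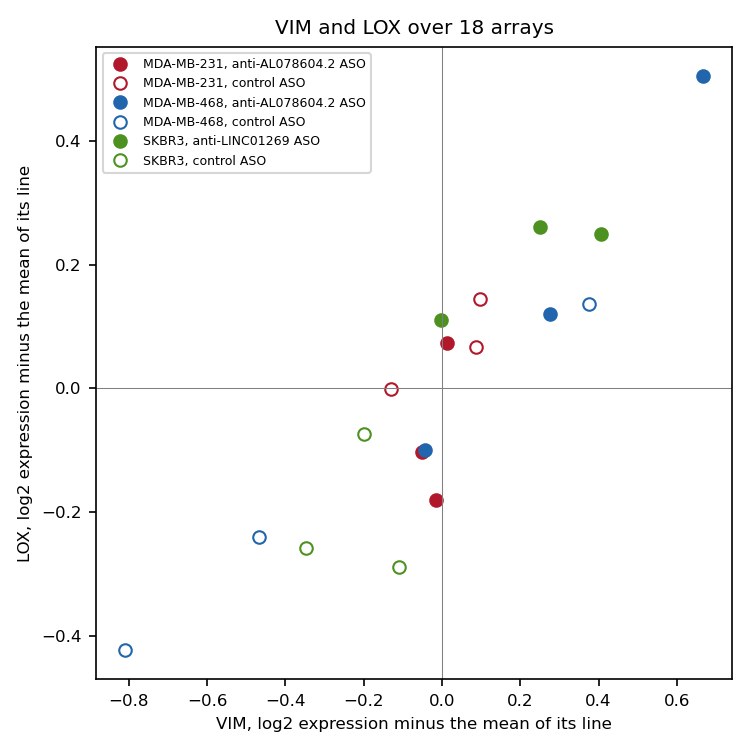
LOX against VIM, each as log2 expression minus the mean of its line, in the 18 arrays (filled: anti-lncRNA ASO; open: control ASO). The points run along a rising line with a Pearson correlation of 0.906, and the MDA-MB-468 arrays span it from end to end.

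Other pairs were looser, with ZEB2 and TWIST1 the widest apart in the opposite sense: -0.677 (Pearson) and -0.735 (Spearman) over the 18 arrays, and -0.686 within MDA-MB-231, -0.742 within MDA-MB-468 and -0.811 within SKBR3, and -0.563 after each group's mean was subtracted instead. ZEB1 and ZEB2, close relatives in sequence and role, had a correlation of 0.08 after each line's mean was subtracted and of 0.464 after each group's mean was. Among all tested features with a symbol, those most like each member over the 18 line-centred arrays were ZNF558, ARHGEF25 and KDM7A-DT for AXL (0.772, 0.772 and 0.754), LOX, GDE1 and IFNGR2 for VIM (0.906, 0.896 and 0.885), and VIM, GDE1 and TXNL4A for LOX (0.906, 0.881 and 0.806). For ZEB1 they were VAMP2, LINC02159 and BBLN (0.85, 0.821 and 0.809), for ZEB2 MTNR1B, CRHR2 and CTAG2 (0.873, 0.83 and 0.82), and for TWIST1 FOXN4, GPR25 and KRTAP6-2 (0.762, 0.755 and 0.753). The likeness often rested on some of the lines, as for IFNGR2 with VIM, at -0.513 within MDA-MB-231 and 0.997 within MDA-MB-468. These genes were picked as the highest among 12003 tested features with a symbol. Picking the highest of so many over 18 arrays by itself gives high values, and how high was not tested.

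The pathway around the 6 genes was read through 9 lists of 127 genes, of which 87 had a named feature and 80 were tested. Of these 80, 0 passed in any comparison, against 0%, 0.171% and 0.0067% of all features in SKBR3, MDA-MB-231 and MDA-MB-468, and the smallest adjusted limma p was 0.344 in SKBR3 (ZEB2), 0.222 in MDA-MB-231 (KRT7) and 0.203 in MDA-MB-468 (BMP4). Before adjustment 8, 9 and 12 of the 80 had a p under 0.05 in the same order, beside the 9.16%, 9.35% and 10.5% of all features. For the difference between the MDA-MB-231 and MDA-MB-468 responses, 9 of the 80 had such a p, LOX among them, beside 4.16% of all features. The lists were chosen with earlier results of these data known, so these counts are a description only. ZEB2 is among the 8 in SKBR3. It passed the filter only through its treated group there, so its p and the SKBR3 counts that include it are not independent of the filter. The genes beside the members whose differences are given below were named for having the smallest p in their list and line, and none of them passed.

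Among the transcription factors of the transition, 9 of 15 were tested. All 9 were above 0 in MDA-MB-231, where 53% of all features tested were, with SNAI1, the Snail repressor, at 0.30 and KLF8 at 0.22. In MDA-MB-468, where 49.1% of all features tested were above 0, 1 of 9 was, SNAI3, at 0.32, and SNAI1 was at -0.24. The list medians were 0.06 and -0.04, beside 0.01 and -0.0035 over all features tested in each line. The difference between those lines for SNAI1 was 0.54 ± 0.17 (SE), with an unadjusted p of 0.00559 and a limma adjusted p of 0.998. In SKBR3, 6 of 9 were above 0, ZEB2 among them, where 54% of all features tested were, and the median was 0.04. PRRX1 was at 0.25 there and SNAI2, the Slug repressor, at -0.16.

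Of 26 cytoskeleton, matrix and adhesion genes 8 were tested. FN1, the fibronectin gene, was at 8.15, 7.65 and 7.46 under the anti-AL078604.2 ASO and at 8.46, 8.26 and 8.27 under the control ASO in MDA-MB-231, a difference of -0.58 ± 0.31 with no overlap (limma adjusted p = 0.608). In MDA-MB-468 its difference was 0.63 ± 0.31 (adjusted p = 0.494), so the sign was the opposite one, and the difference between the lines was -1.21 ± 0.43 (unadjusted p = 0.0131, limma adjusted p = 0.998). S100A4, a calcium-binding protein gene of motile cells, was at 0.21 in SKBR3 and -0.27 in MDA-MB-231, and the actin-binding gene TAGLN was at 0.14 in SKBR3 and -0.28 in MDA-MB-468. The list medians were 0.05 in SKBR3, -0.04 in MDA-MB-231 and 0.04 in MDA-MB-468.

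The LOX family has 4 further members, LOXL1 to LOXL4, and with LOX and the procollagen protease gene BMP1 they made 6 of 11 listed genes that were tested. LOXL1 was at 0.27 in SKBR3, with all treated arrays above the controls, and at 0.21 in MDA-MB-231, and LOXL4 at -0.24 and -0.16. LOXL2 was at 0.32 and LOXL3 at -0.12 in MDA-MB-468. The list medians were 0.13 in SKBR3, 0.03 in MDA-MB-231 and 0.09 in MDA-MB-468. In the same order 4, 3 and 4 of 6 were above 0, where 54%, 53% and 49.1% of all features tested were.

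AXL belongs to the TAM receptors with TYRO3 and MERTK, which raise the cytokine signalling inhibitors SOCS1 and SOCS3. GAS6 is a ligand of all of them, and PROS1 of TYRO3 and MERTK. Of 9 genes listed 8 were tested. MERTK was at -0.25 and SOCS1 at 0.33 in SKBR3 (limma adjusted p = 0.556 and 0.451), TYRO3 at 0.27 and SOCS1 at 0.22 in MDA-MB-231, and PROS1 at 0.23 and SOCS1 at -0.11 in MDA-MB-468. The list medians were 0.06, 0.16 and -0.0027 in SKBR3, MDA-MB-231 and MDA-MB-468.

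Epithelial genes known to be repressed by ZEB factors numbered 22, and 18 were tested. In SKBR3, 6 of the 18 were above 0, where 54% of all features tested were, and the median was -0.09 beside 0.01 over all features tested. ESRP1, the epithelial splicing factor, was at 9.58, 10.29 and 9.97 under the anti-LINC01269 ASO and at 10.24, 10.30 and 10.25 under the control ASO, with overlap (-0.32 ± 0.11, limma adjusted p = 0.437). The cell polarity gene PATJ was at -0.26 with no overlap (adjusted p = 0.460). In MDA-MB-468, 7 of 18 were above 0, where 49.1% of all features were, with a median of -0.08, and the tight junction gene CLDN4 was at -0.38 and the epithelial factor gene GRHL2 at -0.23, both with no overlap. In MDA-MB-231, 8 of 18 were above 0, where 53% of all features were, with a median of -0.02, OVOL1 at 0.26 and GRHL2 at -0.17.

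The microRNA genes whose mature sequences are printed above were read as genes or precursors, not as mature microRNAs. MIR205 stood at percentiles of 90.5 in MDA-MB-231, 91.5 in MDA-MB-468 and 90.9 in SKBR3 control arrays, with 8.85, 8.85 and 8.95 in MDA-MB-231, 8.96, 9.02 and 8.75 in MDA-MB-468 and 8.17, 8.11 and 8.21 in SKBR3 (deposited log2). MIR200C, of the AAUACUG seed, was at 55.2, 47.8 and 60.8, and MIR141, of the AACACUG seed and the same chromosome 12 cluster, at 61.8, 55.7 and 61.8. Under the ASOs MIR200C was at -0.33 in MDA-MB-231 and -0.45 in MDA-MB-468, each with an SE of 0.33, and at 0.06 in SKBR3, and MIR429 was at -0.23 in MDA-MB-231. MIR205 had the smallest p of the list in MDA-MB-468, at -0.17 ± 0.094 (SE, limma adjusted p = 0.5645). Of 7 genes listed 5 were tested, and 0 of the 5 were above 0 in MDA-MB-231 and in MDA-MB-468 and 2 of 5 in SKBR3. The shares of all features tested above 0 were 53%, 49.1% and 54% in that order. The arrays of the 5 overlapped in each line.

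Corepressors and chromatin partners of ZEB factors gave 10 of 12 tested genes. The deacetylase gene SIRT1 was at 0.22 with no overlap in MDA-MB-231 (limma adjusted p = 0.275), where HDAC1 was at 0.10, and SIRT1 was at 0.12 and the acetyltransferase gene EP300 at -0.13 in SKBR3. In MDA-MB-468 the corepressor gene CTBP2 was at -0.29 and HDAC2 at 0.17. The list medians were 0.06, -0.01 and 0.02 in SKBR3, MDA-MB-231 and MDA-MB-468.

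Of 12 TGF-beta pathway genes 5 were tested, the 4 SMAD genes and BMP4. In MDA-MB-468 the signal carrier gene SMAD3 was at 4.36, 4.20 and 4.45 under the anti-AL078604.2 ASO and at 4.78, 4.96 and 4.74 under the control ASO, with no overlap (-0.49 ± 0.13, limma adjusted p = 0.228). The ligand gene BMP4 was at 8.71, 8.48 and 8.71 under the anti-AL078604.2 ASO and at 8.03, 8.15 and 7.99 under the control ASO, also with no overlap (0.58 ± 0.14, adjusted p = 0.203). SMAD3 was at -0.23 and SMAD2 at 0.17 in MDA-MB-231, and SMAD4, the common partner of the other SMADs, was at 0.30 and SMAD3 at 0.13 in SKBR3.

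The other intermediate filament genes gave 12 of 14 tested with VIM. In SKBR3, 10 of 12 were above 0, where 54% of all features tested were, and the median was 0.07. VIM had the largest difference there, and GFAP was at 0.23 and LMNA at 0.14. In MDA-MB-231 the keratin gene KRT7 was at 8.31, 8.25 and 8.31 under the anti-AL078604.2 ASO and at 8.12, 8.01 and 8.09 under the control ASO (0.22 ± 0.067, limma adjusted p = 0.222), and KRT80 was at 0.41. In MDA-MB-468 KRT18 was at 0.19 and KRT80 at 0.38, and the list medians in MDA-MB-231 and MDA-MB-468 were -0.02 and -0.01.

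**Figure D5:**
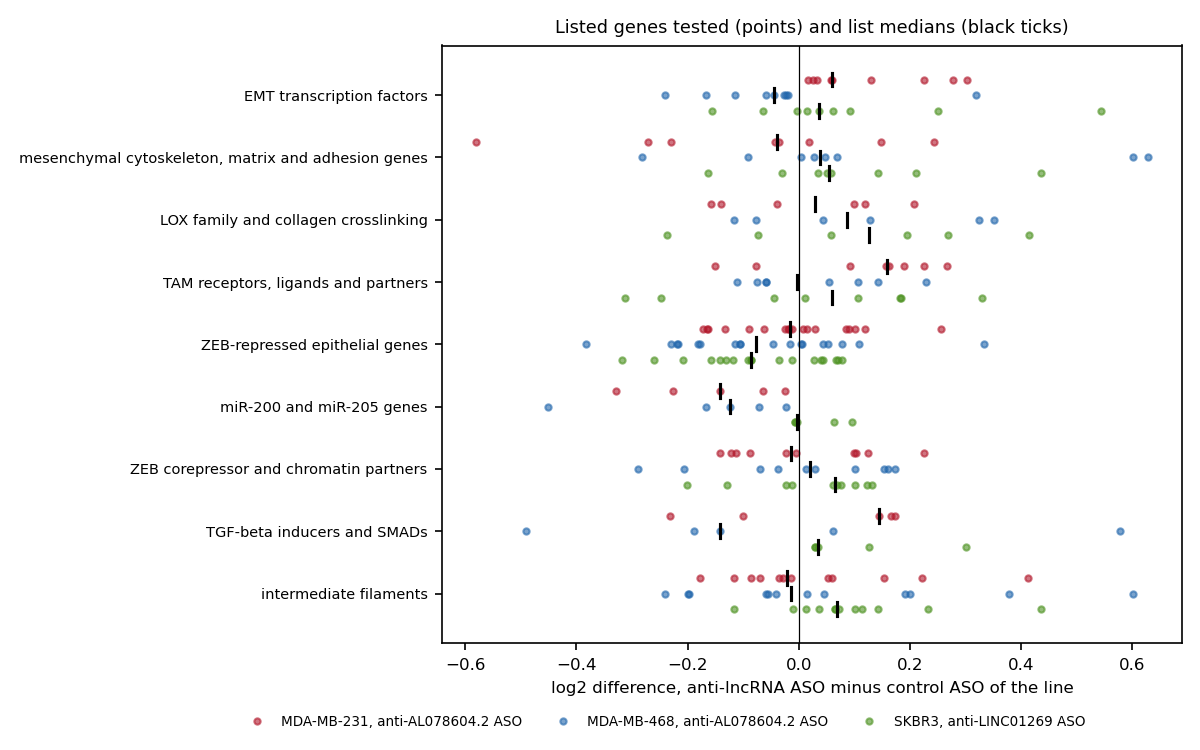
Difference in deposited log2 expression between the anti-lncRNA ASO and the control ASO of the same line (horizontal axis) for each tested gene of the 9 lists, with a black tick at the list's median in each line. All 9 transcription factor genes lie right of 0 in MDA-MB-231 and 1 of 9 in MDA-MB-468, where 53% and 49.1% of all features tested do. FN1 lies at -0.58 and 0.63 in those lines, and none of the genes shown passed after adjustment.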

How the data were processed

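RNA from 18 Affymetrix Human Gene 2.0 ST arrays was deposited by the authors as 1 table of values, read here as log2 from its range and spread. Per the submitters' processing notes the authors used Transcriptome Analysis Console; its version, normalization and genome build are not given in the sources used here. Of 53617 features, 16098 have 1 symbol in the platform annotation, 0 have several and 37519 have none.

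The arrays were fitted together with limma 3.58.1 in R 4.3.3, 1 mean per group, with an intensity trend (12 residual and 4.33 prior degrees of freedom). Features whose mean exceeded the group's median in at least 1 group were tested (29855), two-sided, with Benjamini-Hochberg adjustment and a threshold of 0.05. The fit was tested on simulated data.

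The members and lists were chosen with earlier results of these data known. Named were all members, in each list up to 2 non-members with the smallest p where none passed, the 3 features most like each member, and marker genes. CD44 and FN1's array order in MDA-MB-468 were singled out after values were seen. Control probes were not marked and were kept. Alternatives were centring, quantile normalization, filters, no trend, a replicate block, a line's own arrays and each array left out. The number of arrays limits the precision.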

Additional observations from a re-analysis of the deposited data

How the results depend on the processing

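The count of 0 members passing in limma held under every alternative run in the 3 comparisons and in the difference between lines, with 2, 0, 2 and 1 of 4 members at an unadjusted p under 0.05 in SKBR3, MDA-MB-231, MDA-MB-468 and the difference. The count over all features did not hold. In MDA-MB-231 it was 51, and 28 without a filter, 99 with means above the 75th percentile, 26 without the intensity trend and 11 on the comparison's own arrays; in MDA-MB-468 it was 2, and 1 with the stricter filter and 1 on its own arrays; in SKBR3 it was 0, and 1 without a filter. Leaving out 1 array gave 0 to 535 in MDA-MB-231 (535 without treated replicate 1, 0 without any of the other 5), 0 to 12 in MDA-MB-468 (12 without treated replicate 3) and 0 to 232 in SKBR3 (232 without treated replicate 2). Same-numbered arrays of a line correlated at -0.124 to 0.101 in their deviations. No pairing by replicate number was seen, but 3 arrays a group are too few to exclude it. With the replicate number as a block 0 features passed in MDA-MB-231 and 0 in MDA-MB-468.

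Leaving out 1 array turned the sign of small differences: AXL (-0.0152 to 0.16), VIM (-0.11 to 0.0036) and ZEB2 (-0.0189 to 0.13) in MDA-MB-231, ZEB2 in MDA-MB-468 (-0.12 to 0.0478), the untested ZEB1 (-0.0859 to 0.13) and TWIST1 (-1e-04 to 0.17) in MDA-MB-231 and TWIST1 in MDA-MB-468 (-0.13 to 0.16), and the difference between lines for TWIST1 (-0.087 to 0.21) and AXL (-0.16 to 0.0176, with 0.0113 without treated replicate 1 of MDA-MB-468). Between control arrays of lines it did so for VIM (-0.016 to 0.12), ZEB1 (-0.0692 to 0.23) and ZEB2 (-0.20 to 0.0318) in MDA-MB-231 minus SKBR3, and for ZEB2 in MDA-MB-468 minus SKBR3 (-0.22 to 0.0085) and MDA-MB-231 minus MDA-MB-468 (-0.0431 to 0.12, with -0.0093 without control replicate 2 of MDA-MB-468). Centring each array on its median gave -0.0686 for VIM in MDA-MB-231 minus SKBR3. The deposited values as they stand turned ZEB2 (0.81) and TWIST1 (0.17) in MDA-MB-231 minus SKBR3 and ZEB1 (0.15), ZEB2 (0.61) and TWIST1 (0.44) in MDA-MB-468 minus SKBR3, and gave 5 gaps of at least 2-fold between lines, not 2. The cause was not tested.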
